A study of Mus musculus with 8 samples.

Results

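The genes described here are the cytochrome P450 enzymes of families 1, 2 and 3, measured in the first 5 cm of the small intestine of mice with and without the homeodomain factor Pdx1 in the gut epithelium. Members were the probe sets whose single gene symbol is Cyp, a family number from 1 to 3, a subfamily letter and a gene number. There were 52 such probe sets for 43 genes, out of 45037 probe sets for 18193 named genes. They fell into 14 subfamilies. Expression was measured on Affymetrix arrays, 1 array a mouse, in 4 Pdx1flox/flox;VilCre (KO) mice and 4 Pdx1flox/flox (Ctrl) mice. All 8 were males aged 6 months on a diet with 4.5% fat, and each is labelled a brother of the same litter, without a statement of which mice shared one. In both groups loxP sites flank Pdx1 exon 2, which encodes the DNA-binding domain. The knockout mice also carried Cre recombinase under a 12.4 kb piece of the villin 1 promoter, active in the gut epithelium, so the controls lacked Cre.

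P450 enzymes are haem proteins of the endoplasmic reticulum that add oxygen to fat-soluble molecules, drawing electrons from the reductase Por and from cytochrome b5. Those of families 1 to 3 oxidise drugs, plant compounds, pollutants, steroids and fatty acids. In the small intestine they sit in enterocytes and act on food compounds and oral drugs before these reach the liver. Many respond to ligands: family 1 genes through the aryl hydrocarbon receptor Ahr, and many genes of families 2 and 3 through the nuclear receptors PXR (Nr1i2) and CAR (Nr1i3).

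Array medians lay between 5.23 and 5.27 on the log2 scale. Pdx1 was lower in every knockout mouse than in any control on both probe sets, with log2 changes of -2.59 and -1.85 (adjusted p = 4.16e-04 and 0.00107 in limma); whether they read the removed exon was not checked here. Vil1, whose promoter drives Cre, had 0.19 (adjusted p = 0.660 in limma). All 10 measured markers of enterocytes had means of 12.70 or more. The samples were whole tissue, in which fewer cells of a type and less RNA per cell cannot be told apart.

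No P450 gene of families 1 to 3 passed the test between the genotypes, which does not show that none differed, and the mice within each group differed widely in these transcripts. Of the 52 member probe sets, 0 passed at an adjusted p under 0.05 in limma, where 0.0422% of all probe sets did (19 of 45037), with 0.00444% higher and 0.0377% lower in the knockout. At an unadjusted p under 0.05 there were 5 members, 9.62% of them, beside 7.13% of all probe sets. Of these, 4 were higher in the knockout, beside 3.5% of all probe sets, and 1 was lower, beside 3.62%. The median log2 change over the 43 genes was -0.0048, with 20 above 0 and 23 below, and over all genes it was 0.0046. Only Cyp1a1 had a change of at least 1 in size, 2.33% of the 43 genes, beside 0.203% of all genes (37 of 18193).

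**Figure D1:**
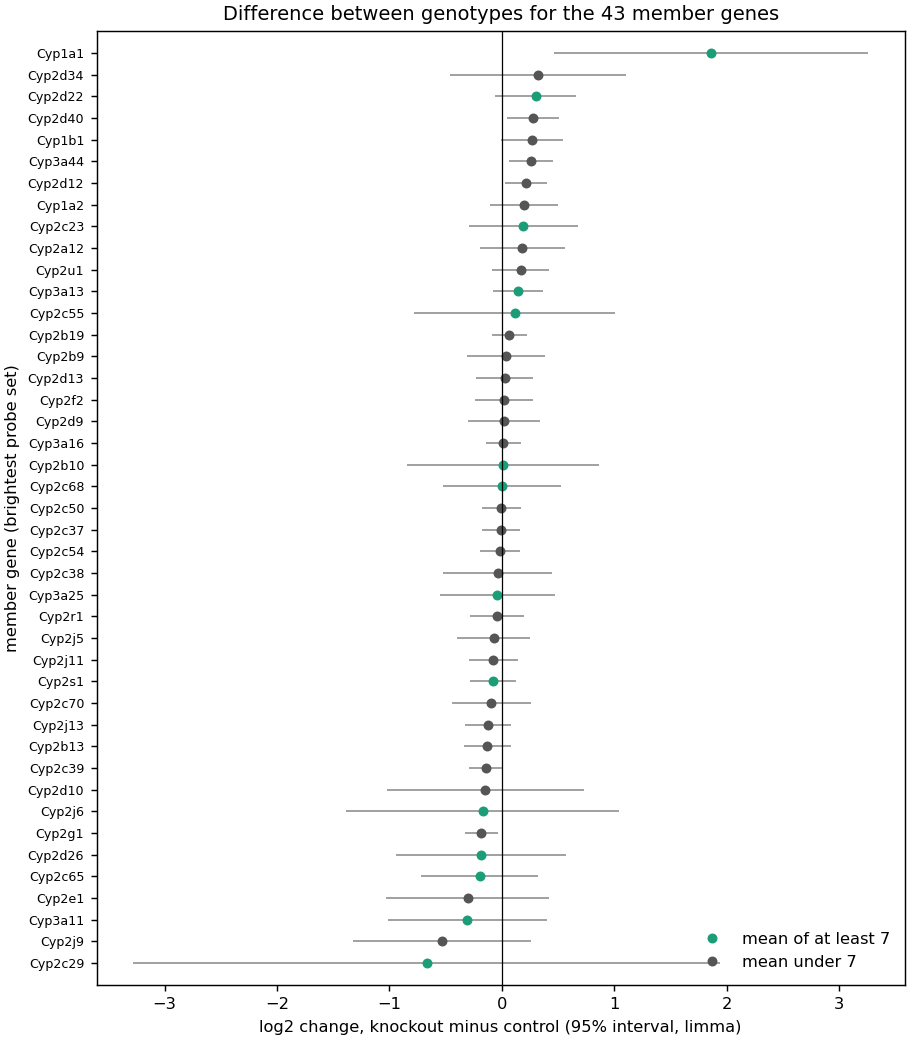
Log2 change, knockout minus control, with its 95% interval from limma, for the brightest probe set of each of the 43 genes. Green points are the 14 genes with a mean of at least 7 over the 8 mice and grey points are the other 29. Cyp1a1 stands at 1.86 and most other points lie near 0, while Cyp2c29 has the widest interval.

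Within the groups the picture was different. The SD between mice of the same genotype, pooled over both groups, had a median of 0.24 over the 43 genes and of 0.13 over all genes. Among the 14 member genes with a mean of at least 7, well above the array medians, it was 0.50, against 0.12 over the 8187 genes of that range. It was above 0.5 in 7 of the 14, and in 2.33% of the 8187. Cyp2c29 ranked 4 among all 18193 genes by this spread, Cyp1a1 ranked 30 and Cyp2j6 ranked 46. These figures describe the spread and were not tested.

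**Figure D2:**
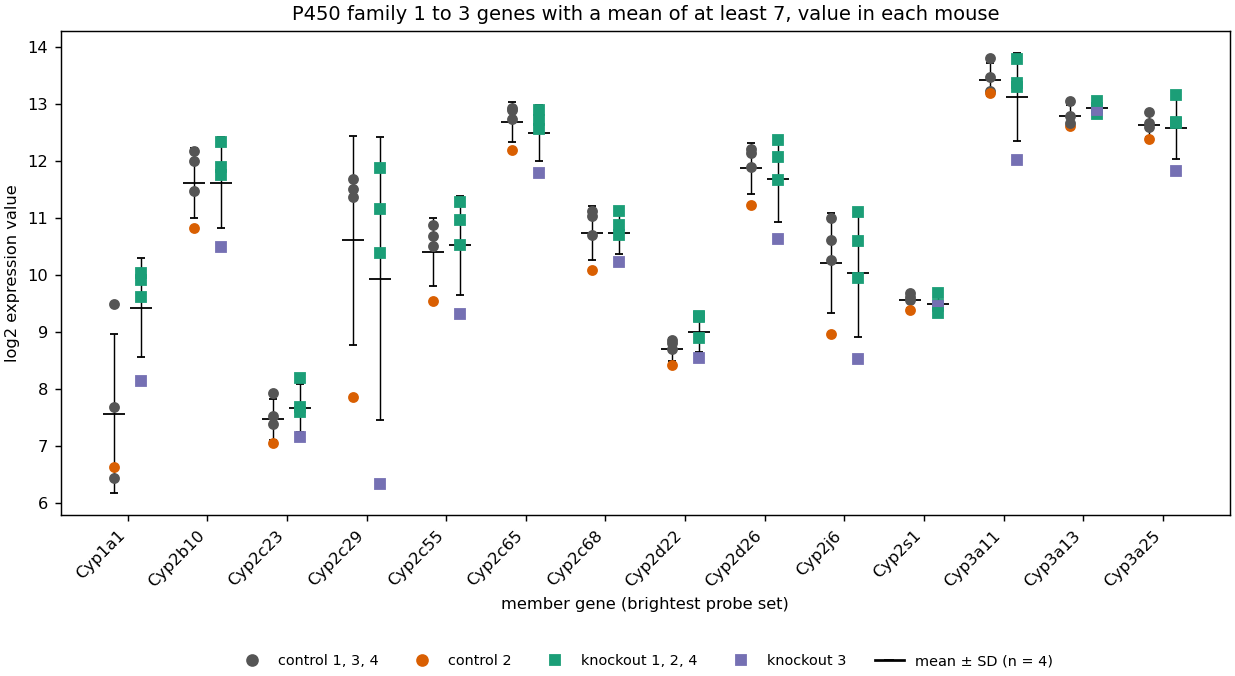
Log2 expression values of the 14 member genes with a mean of at least 7, 1 point a mouse, with control mice as circles and knockout mice as squares; bars give the group mean ± SD (n = 4). Control 2 and knockout 3 have points of their own colour and lie at the bottom of their groups in 11 of the 14 genes.

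Cyp1a1, which oxidises polycyclic aromatic hydrocarbons and is the classic target of Ahr, had the largest increase of all 45037 probe sets but did not pass the test. In the control mice it read 7.69, 6.64, 6.45 and 9.49, and in the knockout mice 9.61, 10.04, 8.15 and 9.90. Of the 4 knockout mice, 3 read above every control, while control 4 read above knockout 3, so the groups overlapped. Knockout mice averaged 9.43 ± 0.87 and control mice 7.57 ± 1.39 (SD, n = 4 each), so the log2 change was 1.86, or 3.63-fold. Its 95% interval ran from 0.46 to 3.25 (unadjusted p = 0.0140, adjusted p = 0.625 in limma). The 8 mice spanned a 12.1-fold range.

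The change of Cyp1a1 kept its sign in all 18 alternatives and passed in none, with a lowest adjusted p of 0.347 in limma, reached without control 4. There the log2 change was 2.50. Some alternatives lost the unadjusted call as well. The unadjusted p was 0.0643 in the ordinary linear model. In limma it was 0.0579 with a trended robust prior and 0.0571 with a floor at 5. Cyp1a1 had a single probe set, so no second one could be set beside it.

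The other genes of family 1 were dimmer. Cyp1b1, a relative found mostly outside the liver, read 6.05, 6.60, 6.42 and 6.46 in the controls and 6.54, 6.88, 6.69 and 6.50 in the knockouts. That is a difference of 0.27, with an interval from -0.0080 to 0.54 (adjusted p = 0.709 in limma). Its 2 dimmer probe sets had 0.17 and -0.08. Cyp1a2, the neighbour of Cyp1a1 in the genome and mainly a liver enzyme, read between 4.61 and 5.37 in all 8 mice and had 0.19 (adjusted p = 0.799 in limma).

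Ahr and the other targets of Ahr had small differences. Ahr itself had -0.02 and its partner Arnt -0.13. Of 7 listed targets outside the P450 family, 5 were measured and 0 passed. The repressor Ahrr had 0.18, the poly-ADP-ribosyltransferase Tiparp 0.12 and the quinone reductase Nqo1 -0.05. Tiparp read 8.44, 8.53, 8.65 and 8.62 in the controls and 8.93, 8.57, 8.31 and 8.90 in the knockouts. Ahrr read 4.96, 5.02, 5.07 and 5.14 against 5.21, 5.36, 5.30 and 5.04. Knockout 3, the lowest knockout for Cyp1a1, was also lowest for Ahr, Tiparp, Nqo1 and Lpcat2, while knockout 4 was lowest for Ahrr and Aldh3a1. Control 4, the highest control for Cyp1a1, was also highest for Ahr, Ahrr and Nqo1. It was second to control 3 for Tiparp and lowest for Aldh3a1. Over the 5 measured targets, the mean deviation from the 8-mouse mean was -0.03 in control 4. Among the controls it was highest, at 0.12, in control 3, the lowest control for Cyp1a1. Among the knockouts it was lowest in knockout 3, at -0.08.

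The 250 bases before the start of Cyp1a1 are shown because this gene had the largest change and because they hold the short core that Ahr and Arnt bind. Sequences come from RefSeq, build GRCm38.p6, and run 5′ to 3′ on the gene's strand. Capitals mark GCGTG, the core of the Ahr element, and TATAAA, the letters of the TATA box, anywhere in the window and on either strand.
Cyp1a1, chr9:57697363-57697612, plus strand: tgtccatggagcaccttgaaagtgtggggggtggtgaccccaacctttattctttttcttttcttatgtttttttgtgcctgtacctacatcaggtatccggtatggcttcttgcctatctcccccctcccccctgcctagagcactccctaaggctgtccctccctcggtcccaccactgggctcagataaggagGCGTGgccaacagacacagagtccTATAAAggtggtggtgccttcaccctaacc
The single GCGTG lies 54 to 50 bases before the start, and TATAAA 30 to 25 bases before it. Of the 43 genes 35 matched a window in the table. GCGTG, as written or as CACGC, was in 18.4% of the 38 member windows of 250 bases and in 28.2% of all 32851. TATAAA, searched after the values were seen, was in 44.7% and 12.4%. The member windows belong to related genes, so they are not independent. A match of letters is a description, not a binding site.

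Cyp2c29, a liver and gut enzyme that makes epoxides from fatty acids, showed the widest spread of the members, and it did so in both genotypes. The controls read 11.68, 7.87, 11.51 and 11.37 and the knockouts 10.38, 11.16, 6.34 and 11.87. Control 2 lay 12.6-fold below the mean of the other 3 controls and knockout 3 lay 27.8-fold below the mean of the other 3 knockouts, averaged on the log2 scale. Between its lowest and highest mouse the gene spanned a 46.1-fold range. The difference between genotypes was -0.67 with an interval from -3.28 to 1.94 (adjusted p = 0.936 in limma). It was 0.53 without knockout 3 and -1.58 without control 2.

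The same 2 mice were low for most of the brighter P450 genes. Control 2 had the lowest control value for 13 of the 14 genes, all but Cyp1a1. Knockout 3 had the lowest knockout value for 12, all but Cyp2s1 and Cyp3a13. Both were lowest for 11 of the 14, or 78.6%, against 15.1% of the 8187 genes with a mean of at least 7. The median difference from the other 3 mice of the group was -0.76 for control 2 and -1.21 for knockout 3, and over the 8187 genes it was 0.02 for each. These mice were singled out after the values were seen. Their deviations from the group mean also resembled each other across 22519 probe sets with a mean at or above the median (r = 0.70, the highest of 16 control and knockout pairs), so the resemblance was not limited to P450 genes.

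**Figure D3:**
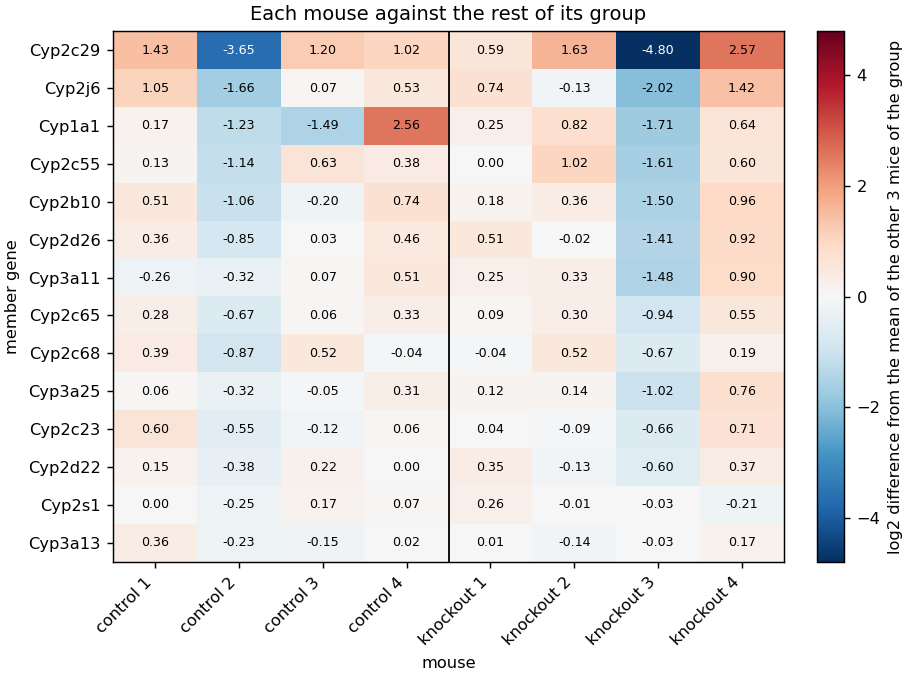
Log2 difference of each mouse from the mean of the other 3 mice of its group, for the 14 member genes with a mean of at least 7; blue is lower, red is higher, and the line divides control from knockout mice. The columns of control 2 and knockout 3 are blue for nearly all genes, down to -3.65 and -4.80 for Cyp2c29, while Cyp2s1 and Cyp3a13 are pale throughout.

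Cyp2b10, which oxidises drugs and is the standard target of CAR, read 11.99, 10.82, 11.46 and 12.17 in the controls and 11.75, 11.89, 10.49 and 12.33 in the knockouts. Control 2 and knockout 3 were again lowest, and the groups overlapped almost fully. The difference was 0.01 with an interval from -0.85 to 0.86, and 2 further probe sets had -0.05 and 0.02. The width of that interval sets what could have been seen.

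In the 2C subfamily, Cyp2c55, Cyp2c65 and Cyp2c68 lay well above the array medians and were lowest in the same mice. Cyp2c55, known from the gut and for hydroxylating arachidonic acid, read 10.50, 9.55, 10.88 and 10.69 in the controls and 10.52, 11.28, 9.31 and 10.96 in the knockouts. Its difference was 0.11, with an interval from -0.78 to 1.01. Cyp2c65, another gut enzyme, read 12.89, 12.18, 12.73 and 12.92 against 12.55, 12.71, 11.78 and 12.89. Its difference was -0.20 and its range 2.21-fold. Cyp2c68 read 11.03, 10.08, 11.13 and 10.70 against 10.70, 11.12, 10.23 and 10.87, a difference of -0.0033 with an interval from -0.53 to 0.52.

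Cyp2c23 was dimmer, averaging 7.47 ± 0.36 in control mice and 7.66 ± 0.42 in knockout mice (SD, n = 4 each), with control 2 and knockout 3 lowest as well. The other 6 genes of the subfamily, Cyp2c37, Cyp2c38, Cyp2c39, Cyp2c50, Cyp2c54 and Cyp2c70, had means under 7, and their changes lay between -0.14 and -0.0048. Cyp2c38 read lowest in the same mice, at 5.75 in control 2 and 5.60 in knockout 3. In the genome Cyp2c29, Cyp2c39 and Cyp2c38 are direct neighbours (RefSeq, GRCm38.p6).

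Cyp2j6, a gut member of a subfamily that makes epoxides from fatty acids, varied most after Cyp2c29 and Cyp1a1. It read 11.00, 8.97, 10.26 and 10.61 in the controls and 10.59, 9.94, 8.52 and 11.11 in the knockouts. Control 2 lay 3.15-fold and knockout 3 lay 4.07-fold below the mean of the other 3 mice of their groups. The dimmer probe set was lowest in the same mice and gave a difference of -0.16, beside -0.17 on the brighter. The interval of the latter ran from -1.38 to 1.04. Cyp2j9, the neighbour of Cyp2j6, averaged 6.28 ± 0.53 in control mice and 5.75 ± 0.76 in knockout mice (SD, n = 4 each), a difference of -0.53 (adjusted p = 0.789 in limma). Cyp2j5, Cyp2j11 and Cyp2j13 had means of 5.08 or less and changes between -0.12 and -0.07.

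In the 2D subfamily, Cyp2d26 read 12.14, 11.22, 11.89 and 12.21 in the controls and 12.06, 11.66, 10.62 and 12.37 in the knockouts. Control 2 and knockout 3 were lowest again. The difference was -0.19, with an interval from -0.94 to 0.57. Cyp2d22, related to the drug-metabolising human 2D enzyme, read 8.81, 8.42, 8.87 and 8.70 against 9.26, 8.90, 8.55 and 9.28, a difference of 0.30 (adjusted p = 0.745 in limma). Without both control 2 and knockout 3, a setting chosen after seeing the data, its groups no longer overlapped on either probe set. The differences were 0.35 and 0.28, with an adjusted p of 0.884 for each in limma. Groups of fewer mice separate more often by chance.

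The other 6 genes of the 2D subfamily had means of 5.55 or less. Cyp2d10 read 5.24 to 5.88 in the controls and 5.53, 5.55, 4.21 and 6.61 in the knockouts, so knockout 3 and knockout 4 lay at the ends of its range. Cyp2d34 read 5.74 in knockout 4 and at most 4.51 in any other mouse. Cyp2d12 and Cyp2d40 were among the members at an unadjusted p under 0.05, with 0.22 (adjusted p = 0.670 in limma) and 0.28 (adjusted p = 0.660 in limma). Both lay below the array medians, at 3.52 and 4.21 in the knockout. Cyp2d9 and Cyp2d13 each had 0.02.

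Cyp3a11, the main drug-metabolising 3A enzyme of the mouse and a target of PXR, read 13.23, 13.18, 13.47 and 13.80 in the controls and 13.30, 13.36, 12.01 and 13.79 in the knockouts. Knockout 3 stood 2.78-fold below the mean of the other 3 knockouts. Control 2, the lowest control, lay 1.25-fold below the mean of the other 3 controls. The difference between genotypes was -0.31, with an interval from -1.01 to 0.40 (adjusted p = 0.874 in limma), and without knockout 3 it was 0.06. Cyp3a25, its neighbour in the genome, read 12.66, 12.38, 12.58 and 12.85 against 12.67, 12.68, 11.81 and 13.14. Its difference was -0.04.

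Cyp3a13, a 3A enzyme strongly expressed in the gut, showed little of this spread. It read 13.05, 12.61, 12.66 and 12.79 in the controls and 12.92, 12.81, 12.90 and 13.04 in the knockouts, a 1.36-fold range over the 8 mice. Knockout 3 was in the middle of its group. The difference was 0.14 with an interval from -0.08 to 0.36. Cyp3a13 has no other P450 gene of these families beside it in the genome, unlike Cyp3a11 and Cyp3a25. Cyp3a16 and Cyp3a44 read at most 4.13 in any mouse; Cyp3a44 had 0.26 at an unadjusted p of 0.0159 (adjusted p = 0.634 in limma).

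Cyp2s1, an epithelial enzyme outside the liver that responds to Ahr, was the other even member. It read 9.56, 9.38, 9.69 and 9.62 in the controls and 9.68, 9.47, 9.46 and 9.32 in the knockouts, a 1.29-fold range. Its difference was -0.08, with an interval from -0.29 to 0.13. Among known Ahr targets of the family, the pooled SD was 1.16 for Cyp1a1, 0.23 for Cyp1a2, 0.21 for Cyp1b1 and 0.14 for Cyp2s1.

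The 250 bases before the start of 4 genes with different patterns over the mice are shown for comparison. Cyp2c29 and Cyp2b10 were low in control 2 and knockout 3, Cyp3a11 mainly in knockout 3, and Cyp3a13 in neither by more than 1.17-fold. Capitals mark GCGTG, TAAT (the core that homeodomain factors such as Pdx1 can bind), AGGTCA (the half-site of many nuclear receptors) and TATAAA, on either strand.
Cyp2c29, chr19:39286835-39287084, plus strand: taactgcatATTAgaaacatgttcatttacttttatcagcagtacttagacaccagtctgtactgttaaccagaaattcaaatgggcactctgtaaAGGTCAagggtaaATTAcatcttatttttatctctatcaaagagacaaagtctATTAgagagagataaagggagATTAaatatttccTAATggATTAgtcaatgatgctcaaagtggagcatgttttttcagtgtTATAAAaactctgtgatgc
Cyp2b10, chr7:25897408-25897657, plus strand: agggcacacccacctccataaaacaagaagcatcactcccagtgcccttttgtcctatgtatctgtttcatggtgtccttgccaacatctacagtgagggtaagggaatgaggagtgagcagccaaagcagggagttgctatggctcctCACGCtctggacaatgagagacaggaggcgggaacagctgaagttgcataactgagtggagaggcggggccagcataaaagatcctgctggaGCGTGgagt
Cyp3a11, chr5:145879855-145880104, minus strand: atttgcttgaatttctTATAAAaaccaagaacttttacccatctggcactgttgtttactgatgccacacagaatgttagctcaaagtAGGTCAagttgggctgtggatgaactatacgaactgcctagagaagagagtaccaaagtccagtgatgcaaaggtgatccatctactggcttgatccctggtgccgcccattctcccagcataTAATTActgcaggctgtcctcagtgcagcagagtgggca
Cyp3a13, chr5:137921620-137921869, minus strand: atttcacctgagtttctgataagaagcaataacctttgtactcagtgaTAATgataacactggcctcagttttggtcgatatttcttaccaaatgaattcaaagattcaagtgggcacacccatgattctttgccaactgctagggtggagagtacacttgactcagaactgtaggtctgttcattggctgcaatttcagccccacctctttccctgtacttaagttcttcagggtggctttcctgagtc
In these windows TAAT, as written or as ATTA, occurs 6 times for Cyp2c29, 2 times for Cyp3a11, where the copies overlap, and 1 time for Cyp3a13. AGGTCA occurs 1 time each for Cyp2c29 and Cyp3a11, and GCGTG 2 times for Cyp2b10. TATAAA lies 19 to 14 bases before the start of Cyp2c29 and 234 to 229 bases before that of Cyp3a11. TAAT was in 65.8% of the member windows and in 54.9% of all windows, and AGGTCA, searched after the values were seen, in 31.6% and 14%. The window of Cyp2j6, also low in control 2 and knockout 3, is not shown and held none of these motifs. All windows are short, and letters outside them were not searched.

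The remaining members were dim or near the array medians. The liver enzyme Cyp2e1, which oxidises ethanol, read 6.16, 5.53, 6.16 and 6.33 in the controls and 6.41, 5.47, 4.78 and 6.31 in the knockouts, with control 2 and knockout 3 lowest once more. Cyp2u1 had 0.17, Cyp2a12 0.18, the vitamin D hydroxylase Cyp2r1 -0.05 and Cyp2f2 0.02. Cyp2b9, Cyp2b13 and Cyp2b19 had changes between -0.13 and 0.06, with means under 5. Cyp2g1, an enzyme of the olfactory lining, averaged 3.86 ± 0.05 in knockout mice and 4.05 ± 0.07 in control mice (SD, n = 4 each), a difference of -0.18 at an unadjusted p of 0.0176 (adjusted p = 0.645 in limma).

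For 3 member probe sets, 5.77% of them, every knockout mouse lay on one side of every control, beside 4.43% of all probe sets. They were Cyp2d40, with higher values (2.1% of all probe sets), and Cyp2g1 and Cyp2c39, with lower ones (2.33%). Cyp2c39 is named here after its values were seen. All 3 had means under 5, below every array median, so the values hold an unknown share of background. With values under 5 set to 5, 0 member probe sets were separated and 0 were at an unadjusted p under 0.05. Cyp1a1, which lies above that floor, kept its log2 change of 1.86 there, with an unadjusted p of 0.0571 (adjusted p = 1 in limma).

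Among the partners and regulators of P450 enzymes no gene passed the test. Of the electron donors 4 were measured and 0 passed, with Cyb5a, cytochrome b5, at 0.15 and Pgrmc1 at 0.12. In haem synthesis and breakdown 11 genes were measured and 0 passed; the first enzyme, Alas1, had 0.02. Of the regulators 25 were measured and 0 passed: Nr1i2 (PXR) had 0.10, Nr1i3 (CAR) -0.08 and Hnf4g 0.28 (adjusted p = 0.561 in limma). Vdr, the vitamin D receptor, had -0.41 (adjusted p = 0.599 in limma). Nr1i3 read 9.08, 8.68, 8.97 and 9.10 in the controls and 9.01, 8.91, 8.37 and 9.24 in the knockouts, lowest in control 2 and knockout 3. Nr1i2 read 8.08, 8.13, 7.84 and 8.32 against 8.16, 8.20, 8.11 and 8.30 with control 3 lowest among the controls.

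Of the targets of PXR and CAR outside the P450 family, 12 were measured and 0 passed, and 7 of the 12 were lowest in both control 2 and knockout 3. Over all 18193 genes 13.1% were. The carboxylesterase Ces2a read 12.51, 11.80, 12.02 and 12.87 in the controls and 12.30, 12.34, 10.84 and 13.23 in the knockouts. The drug exporter Abcb1a read 11.30, 10.65, 11.12 and 11.38 against 11.42, 11.29, 10.44 and 11.73. All 4 measured flavin monooxygenases and 2 of 4 epoxide hydrolases were lowest in both mice as well. Ephx1, which opens epoxides made by P450 enzymes, read 8.23 in control 2 and 7.0 in knockout 3, and at least 8.81 in every other mouse. The count was 3 of 4 among electron donors and 6 of 10 among enterocyte markers, so it was not limited to genes of drug metabolism. Among those 6 markers, control 2 differed from the other 3 controls by -0.05 for Fabp1 to -0.81 for Lct. The count was 6 of 25 among regulators and 2 of 11 among haem genes. It was 0 of 11 for exocrine pancreas, 0 of 11 for smooth muscle and 0 of 5 for B and plasma cells. Goblet cells and endothelium had 2 of 7 each, and macrophages 1 of 6.

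**Figure D4:**
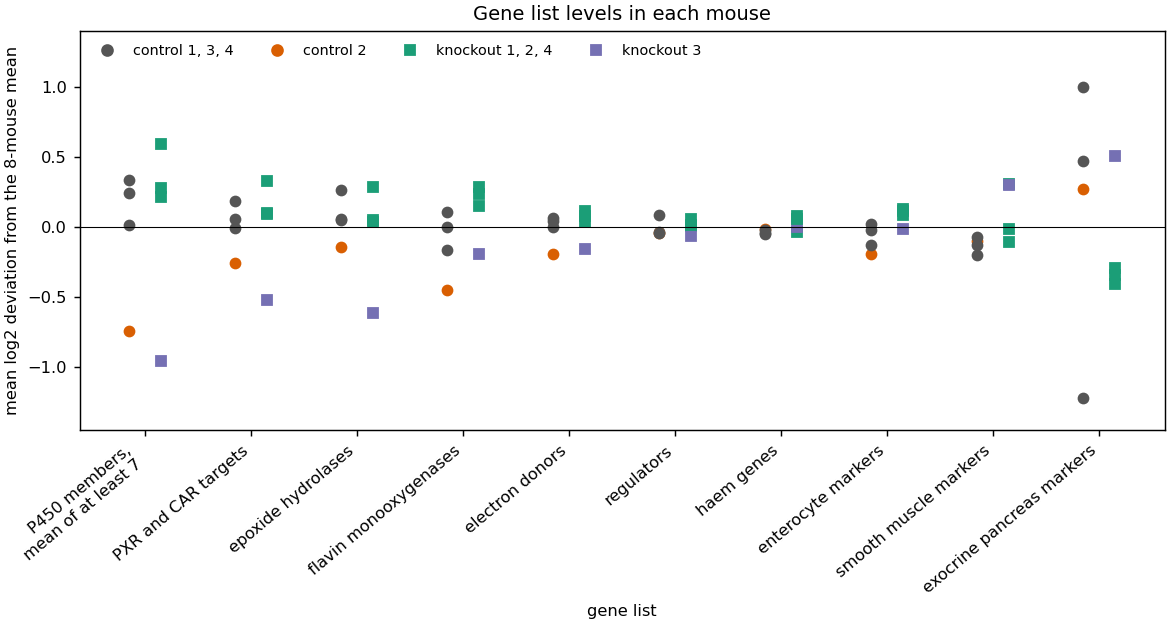
Mean log2 deviation from the 8-mouse mean over the genes of each list, 1 point a mouse, with circles for control and squares for knockout mice. The 14 P450 genes lie at -0.74 in control 2 and -0.95 in knockout 3, the targets of PXR and CAR at -0.25 and -0.52, and the regulators close to 0.

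Marker scores of other cell types in these mice stand beside the P450 values. The enterocyte score, the mean deviation of 10 markers from the 8-mouse mean, was -0.19 in control 2, the lowest of the 8. It was -0.01 in knockout 3, the lowest of the knockouts. The score ranged from -0.19 to 0.02 in the controls and from -0.01 to 0.13 in the knockouts. The exocrine pancreas score (11 markers) was 0.27 in control 2 and 0.51 in knockout 3, and it ranged from -1.22 to 1.01 in the controls and from -0.40 to 0.51 in the knockouts. The smooth muscle score (11 markers) was -0.10 and 0.30, with ranges of -0.20 to -0.07 and -0.10 to 0.31. Of 12 measured liver markers 6 had means under 5, and 4 were lowest in both mice: Alb, Ambp, Apoh and Ttr. Albumin (Alb) read between 5.24 and 5.64, close to the array medians. Ambp had a mean of 6.88 and read 6.56 in control 2 and 5.73 in knockout 3. Ttr, the thyroid hormone carrier, had a mean of 8.92 and a difference of -0.72 with every knockout below every control (adjusted p = 0.625 in limma), and Cps1, a urea cycle enzyme also made in the gut, had a mean of 12.44. The liver score was -0.04 in control 2 and -0.25 in knockout 3, the lowest of the 8. Endothelium, which can express Cyp1a1 and Cyp1b1, had 7 measured markers with means between 5.58 and 7.50, and 0 passed. Its score was -0.12, -0.15, -0.06 and 0.10 in the controls and 0.13, 0.14, -0.09 and 0.05 in the knockouts. As for Cyp1a1, control 4 was the highest control, knockout 2 the highest knockout and knockout 3 the lowest knockout. The rest of the order differed. Control 2 was the lowest control in the score, and control 3 was the lowest for Cyp1a1. Knockout 1 lay above knockout 4 in the score and below it for Cyp1a1. These orders were compared after the values were seen. Vwf, which these cells secrete for clotting, was higher in every knockout than in any control, with a difference of 0.49 (unadjusted p = 8.60e-04, adjusted p = 0.400 in limma). The other markers went both ways. Tek had 0.24, Pecam1 0.21 and Tie1 0.07, while Kdr had -0.10, Egfl7 -0.06 and Cdh5 -0.03. The median over the 7 was 0.07. The part of these cell types in the P450 values was not tested.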

How the data were processed

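RNA from 8 mice was measured on 8 arrays. The authors deposited 1 table of log2 expression values; their range, 2.55 to 14.83, is the basis for reading them as log2. Per the submitters' processing notes, which give no role, Partek 6.4 was used, and how background, summary and normalization were handled is not given in the sources used here. No detection calls were used. The number of arrays limits the precision.

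Of 45101 probe sets, 64 array controls were left out. Symbols are those of GEO's annotation of the array, with 34945 probe sets holding 1 symbol, 932 several and 9160 none. Probe sets with several symbols, among them 2 of these P450 families, were tested but not named. Each gene stands by its brightest probe set. Of the 52 member probe sets, 4 carry the name ending for probes shared between genes, among them 2 of Cyp2b10 and those of Cyp2c23 and Cyp2c65, so near-identical relatives may add to them.

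Knockout minus control was fitted in limma 3.58.1 (lmFit, eBayes; R 4.3.3), two-sided, without filter, covariate or block, and p-values were adjusted over 45037 probe sets by the Benjamini-Hochberg method. The scripts were tested on simulated data. Members and gene lists were chosen with earlier results of these data known. Named were members at an unadjusted p under 0.05, with a mean of at least 9, or with the 6 largest pooled SDs at a mean of at least 7; others are given more briefly. The alternatives were a replicate block, quantile normalization once more, centring on medians, leaving out dim probe sets, setting a floor at 5, array weights, a trended robust prior, an ordinary linear model, averaging the probe sets of a gene and leaving out each mouse. The fit without both control 2 and knockout 3 was added after the data were seen. The labels call the samples biological replicates, 1 mouse each. Figures were drawn with matplotlib 3.10.9.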

Additional observations from a re-analysis of the deposited data

Results flagged for a closer look

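Among 32 groups of 4 mice, for the 16 genes named by the rule, 2 held a mouse far from the rest of its group. For independent groups, chance flags about 1 in 20. That rate cannot be applied here, since 6 of the genes were named for their spread and many were lowest in the same mice. Cyp2c29 read 7.87 in control 2, where the nearest control read 11.37. Cyp2d40 read 4.31 in knockout 3, where the nearest knockout read 4.17; this gap is small because the other 3 knockouts were almost equal. Knockout 3 at 6.34 for Cyp2c29 was not flagged, since the other 3 knockouts spread from 10.38 to 11.87.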

How the results depend on the processing

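No member passed an adjusted p under 0.05 in limma under any alternative, at an adjusted p under 0.1, or in the ordinary linear model, and 0 genes of the pathway lists did. The lowest adjusted p of any named member was 0.347. Over 284 values of the 16 named members under the alternatives, 26 had another sign than the reported value and 4 were 0; Cyp2c29, at -0.67, ranged from -1.58 to 0.53. The 5 member probe sets at an unadjusted p under 0.05 became 1 with a minimum on the mean at the median and 0 with a floor at 5, and ranged from 3 to 8 with each sample left out: 3 without control 4 or knockout 1, and 8 without knockout 3. The 3 separated probe sets became 0 with either the minimum or the floor. They ranged from 3 to 7 with each sample left out (5 without control 1 and 7 without knockout 3), and became 9 without both control 2 and knockout 3. Groups of fewer mice separate more often by chance, so these counts cannot be set beside 3. Without both mice, 11.5% of member probe sets had an unadjusted p under 0.05 in limma, beside 5.57% of all probe sets. For the other counts under the alternatives the share over all probe sets was not computed. Under the floor Cyp2d12, Cyp2d40, Cyp2g1 and Cyp3a44 had a difference of 0, while Cyp1a1 kept its log2 change of 1.86 and lost its unadjusted call. Its values all lie above 5, so the floor changed only the variance that limma shares across probe sets. The median pooled SD of the 14 brighter genes, 0.50, ranged from 0.35 to 0.59 with each sample left out and was 0.28 without both control 2 and knockout 3, against 0.11 over all genes of that range.

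The replicate number was used as a block in a further fit: 0 members passed and 6 had an unadjusted p under 0.05 under the replicate block. The share over all probe sets was not computed there. The numbers were not taken to pair the mice, since deviations of same-numbered mice correlated at -0.01, -0.09, -0.20 and 0.19. The deposited values give no share of background for dim probe sets, which limits the 29 member genes with means under 7.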

Other observations

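Outside families 1 to 3, 30 further P450 genes were measured and 0 passed in limma. Their median change was 0.01. Cyp4f14, a fatty acid hydroxylase, read 12.50, 12.40, 12.60 and 12.30 in the controls and 12.72, 12.81, 12.77 and 12.77 in the knockouts. Every knockout lay above every control, a difference of 0.31 (adjusted p = 0.488 in limma). Its relative Cyp4f16 had 0.29 (adjusted p = 0.654 in limma), and Cyp17a1, a steroid hydroxylase, had -0.37 (adjusted p = 0.497 in limma) with a mean of 5.05 in the knockout. The sterol hydroxylase Cyp27a1 was lowest in control 2, at 8.25, and in knockout 3, at 7.72. In all, 5 of these 30 genes were lowest in both mice, beside 13.1% of all 18193 genes.

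Among the flavin monooxygenases, Fmo1 read 9.24 on average and had 0.47, with an unadjusted p of 0.0209, and Fmo4 had 0.29; neither passed (adjusted p = 0.659 and 0.684 in limma).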
